A study of Mus musculus with 16 samples.

Results

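Macrophages were set against monocytes inside the tumours of C3 knockout mice, in the 4 macrophage and 4 monocyte libraries whose titles name knockout mice 6, 7, 8 and 9. These are 8 of the 16 libraries of the series, and each mouse gave 1 library of each cell type. All 8 came from C57BL/6J mice of genotype C3-/-, which lack a working gene for C3, the complement protein that all activation routes cleave. The monocytes used as the reference therefore carry the deletion too. Each mouse received an injection of MN/MCA1 cells, a transplantable mouse fibrosarcoma, under the skin of the flank, and every tumour was taken 21 days later and digested with collagenase for 1 h. Macrophages were sorted as CD45+ CD11b+ Ly6G- CD11c- cells positive for F4/80 and negative for Ly6C, and monocytes as the same cells with Ly6C and without F4/80. The other 8 libraries, from the same sort in C3 wild-type mice 1 to 4, were used only to test whether the cell-type difference depended on genotype. The sources used here do not give the age of the mice, the C3 genotype of the injected tumour cells or the exons removed from C3. Libraries were made from 5 ng of RNA with SMART-Seq v4, which copies full-length transcripts without marking strand, so reads of overlapping or antisense genes cannot be told apart.

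Tumours recruit Ly6C-positive monocytes from the blood through the chemokine receptor Ccr2, and these cells differentiate in the tissue into macrophages. During that change monocytes lose the granule proteins they carry from the bone marrow. They take on receptors for dying cells and lipids, the C1q chains that open the classical complement pathway, and MHC class II molecules that show peptides to T helper cells. Macrophages of tumours are also known to divide locally, to remodel matrix and vessels, and to respond to interferons and to low oxygen.

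The matrix holds 30819 genes, of which 12772 reached a linear value of 10 in at least 4 of the 8 knockout libraries and were tested. Levels are given as normalized reads, the reads recovered from the deposited values divided by the size factor of the library, listed in the order of mice 6, 7, 8 and 9. Differences are macrophage minus monocyte on the deposited log2 scale, with the standard error of the fit (n = 4 mice). That scale is compressed: over 6115 genes with a large enough change, differences in log2 reads were a median 1.43 times as large. Recovered reads ran from 19962373 to 29049259 per knockout library, 19817 to 24291 genes had at least 1 read, and the 10 most abundant genes took 9.09% to 12.95% of reads. The first principal component of the tested genes held 83.1% of the variance and separated the cell types. The second held 4.07%, and both libraries of mouse 8 lay at its low end.

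C3 itself (GRCm38, chromosome 17, 57203970 to 57228136) was read in every knockout library. Macrophages held 1076, 1368, 1390.3 and 1102 normalized reads and monocytes 4624, 5204, 5137 and 4735. Wild-type macrophages held 3262 to 4830.1 and wild-type monocytes 14608 to 16131, above every knockout library of the same cell type. C3 was lower in knockout macrophages than in knockout monocytes by 3.99-fold (log2 difference -1.35 ± 0.05 SE, limma adjusted p = 7.86e-09). Reads outside the deleted part say nothing of the deletion, and the cell-type order of C3 was that of wild-type mice (log2 difference -1.44).

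Most markers of the sorted cell types, described by list after the gate genes, followed the names of the groups. The gate itself used the proteins of Adgre1 (F4/80), Ly6c1 and Ly6c2, so the levels of these genes describe the sort. Adgre1 stood at 22023, 28546, 28942 and 25885 normalized reads in macrophages and 6698, 6494, 7556 and 8646 in monocytes, so the F4/80-negative gate still held its transcript. Ly6c2 stood at 2.76, 1.64, 8.47 and 7.98 in macrophages and 17510.3, 11307, 14311 and 14899 in monocytes. Ly6c1 and Ly6c2 are near-identical copies, so the reads could be shared between them. Itgax, the gene of CD11c, which both gates excluded, had 4115 to 5290.2 against 1926 to 3368 normalized reads in macrophages against monocytes. Ly6g, the excluded neutrophil protein, had 0 reads in all 4 macrophage libraries and 0.965 to 2.82 normalized reads in monocytes.

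Of the 12772 genes tested, 7773 passed at an adjusted p under 0.05 (60.9%; limma on the deposited log2 values with mouse as a block, Benjamini-Hochberg), 3952 higher in macrophages (30.9%) and 3821 lower (29.9%). Centring each library on its median gave 3358 higher and 4476 lower, and TMM scaling 4399 and 3419. The median difference over all genes was 0.003 and the median size 0.31 log2 units. Differences of at least 1 log2 unit were called for 1703 genes (13.3%), 753 higher (5.9%) and 950 lower (7.44%). The groups did not overlap in 7055 genes (55.2%). With calls in 60.9% of all genes, gene lists are read here by direction and size. Each count of a list stands beside 30.9% higher and 29.9% lower over all genes. In bulk samples, fewer cells of a kind and less RNA per cell cannot be told apart. Leaving out a mouse with both its libraries gave 6567 (without mouse 7) to 7177 genes (without mouse 6), and 6796 without mouse 8. The filter still asked for at least 4 libraries, which left 12420 to 12465 genes tested. Genes read in a single cell type could leave the test in this way, and counts without a mouse do not include them. Counts of a gene list that moved by over 1.5 times when a mouse was left out, an alternative chosen after seeing the data, are given beside the list.

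**Figure D1:**
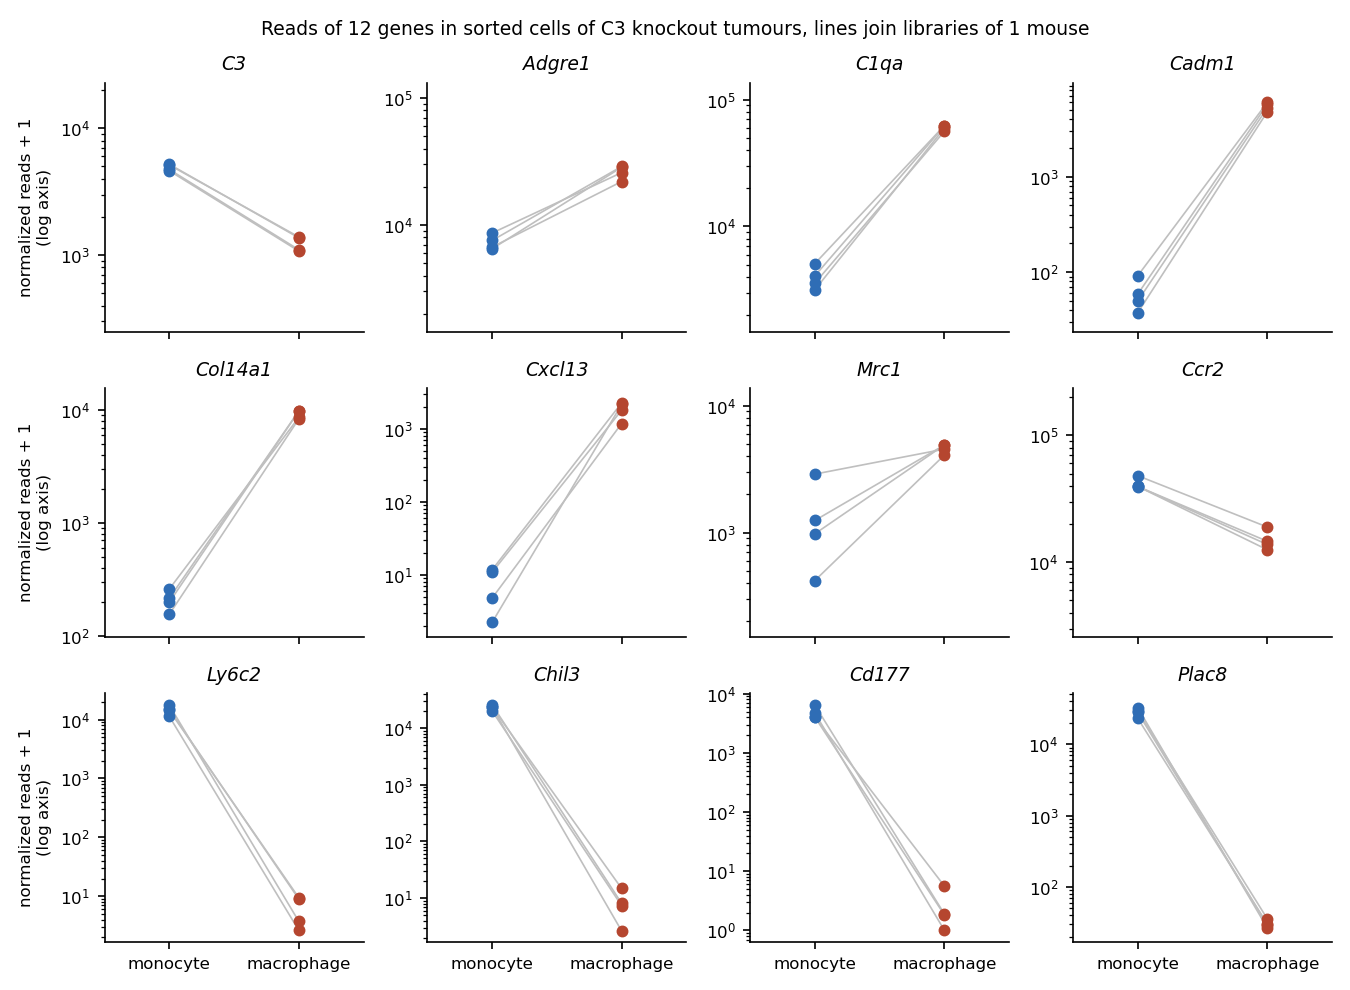
Normalized reads plus 1 on log axes of 12 genes, with blue points for the 4 monocyte libraries and red points for the 4 macrophage libraries of C3 knockout tumours, and a grey line joining both libraries of a mouse. Cadm1, Col14a1 and Cxcl13 were higher, and Ly6c2, Chil3, Cd177 and Plac8 lower, in macrophages of all 4 mice, with no overlap between the groups, while the monocyte values of Mrc1 spread from 418 to 2889.

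The genes of classical monocytes were lower in macrophages without exception among those tested. All 24 measured members of this list were called lower (29.9% of all genes were), 23 of them by at least 1 log2 unit, with a list median of -2.35 against 0.003 over all genes. Chil3, a chitinase-like lectin of monocytes and neutrophils, stood at 13.8, 1.64, 6.35 and 7.09 normalized reads in macrophages and 23529.7, 23447, 20144 and 25919 in monocytes (log2 difference -6.31 ± 0.07 SE, adjusted p = 1.82e-12). Plac8, an abundant monocyte transcript, stood at 25.8, 29.5, 34.9 and 28.4 and 32535, 23107, 29103 and 28028 (-6.09 ± 0.07, adjusted p = 1.86e-12). Every macrophage library was below every monocyte library by a wide margin for both genes. Vcan, the proteoglycan versican, had 15.1 to 47.8 against 2331 to 3899.8 and Hp, the haemoglobin-binding haptoglobin, 7.09 to 18 against 6276 to 7659 normalized reads in macrophages against monocytes. Ccr2 differed less than the other markers named here: macrophages kept 14623, 13789, 12538 and 18934 normalized reads against 39486, 39536, 39588 and 48063 in monocytes, 2.78-fold lower.

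Among the 15 genes furthest below monocytes were several with secreted or surface products. F10, coagulation factor X, had 16 to 49.7 against 5476 to 8725 normalized reads, and Ace, the angiotensin-converting enzyme, 7.98 to 38.6 against 1952 to 3655. Plcb1, a phospholipase C, stood at 2.66 to 16.9 against 1167 to 1767, Rab44, a Rab GTPase, at 7.36 to 23.3 against 1569 to 2324, and Arhgef37, an exchange factor, at 1.06 to 5.52 against 1154 to 1865. Dmkn, which encodes dermokine, reached 538 to 981 normalized reads in monocytes and at most 8.86 in macrophages. Log2 differences of the 15 ran from -6.32 for Ly6c2 to -4.33 for Mmp8. The same sign in all 4 mice was a condition of entering the 15, as was no overlap between the groups.

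Genes of patrolling, non-classical monocytes were mostly lower in macrophages or not called. Of 12 tested, 7 were lower in macrophages, 1 was higher and 4 were not called, with a median of -0.49. Ace and Pglyrp1, a peptidoglycan-binding protein with 0 to 5.29 against 583 to 734 normalized reads, were lower, as was Adgre4, an adhesion receptor (23.9 to 55.7 against 2789 to 3834). Nr4a1, the nuclear receptor that patrolling monocytes depend on, fell from 17209 to 32241 in monocytes to 4979.7 to 8310.3 in macrophages. Spn, the sialoprotein CD43, ran the other way, at 696, 536, 485 and 670.1 in macrophages and 421, 288, 316 and 209.6 in monocytes (log2 difference 0.69 ± 0.12 SE).

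The list of granule genes that monocytes share with neutrophils had 10 of 13 tested members lower in macrophages and none higher, with a median of -3.03. The other 8 listed genes were too low to be tested. Cd177, a surface glycoprotein of neutrophils, stood at 4.60, 0.819, 0 and 0.886 normalized reads in macrophages and 4010.1, 4031, 4704 and 6405 in monocytes, and Mmp8, neutrophil collagenase, at 19.3, 37.7, 19.1 and 22.2 and 2297, 2953, 1921 and 2707. Both were uniform across the monocytes of the 4 mice. Other members were not. Lcn2, a siderophore-binding protein, had 0 reads in every macrophage library and 322, 552, 289 and 68.2 normalized reads in monocytes. S100a9, an alarmin of monocytes and neutrophils, had 60.1, 928, 414 and 4.06 in monocytes and at most 1.06 in macrophages and was not called (log2 difference -3.14 ± 1.07 SE, adjusted p = 0.0785). Secondary granule genes of maturing neutrophils appeared in the monocyte libraries of mice 7 and 8: Camp, cathelicidin, had 0, 633, 1364 and 0 normalized reads in monocytes, and Ngp had 1.88, 4484, 3262 and 0. The summed level of the 12 neutrophil markers ran from 7092 to 16685 in monocytes and 1556 to 1942 in macrophages, while Ly6g stayed at 0.965 to 2.82 in monocytes. Csf3r, described below with the growth factor receptors, is among these markers and made up most of the macrophage sum. The part of neutrophil transcripts in the granule result was not tested. Without mouse 7 the list had 9 members lower and without mouse 8 it had 10.

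Macrophage identity genes were mostly higher in macrophages. Of 31 tested members, 21 were called higher, 5 lower and 5 not called, with a median of 0.95, and 15 of the 21 passed 1 log2 unit. They include the C1q chains. C1qa stood at 56255, 59726, 61958 and 62365 normalized reads in macrophages and 3573, 3171, 4083 and 5098 in monocytes (log2 difference 2.76 ± 0.06 SE, adjusted p = 1.98e-10), and C1qb and C1qc were 9.45-fold and 14-fold higher. Gas6, the bridge between dying cells and their receptors, stood at 691, 878, 609 and 687 against 15, 10.8, 24.1 and 69.1, and Cd81, a tetraspanin, at 18746, 22403, 23265 and 26126 against 1987, 1889.7, 1567 and 1448. Apoe, the lipid carrier, was 3.26-fold higher in macrophages, and Cd63, a tetraspanin of lysosomes, was 7.49-fold higher. Mrc1, the mannose receptor CD206, held 4084, 4908, 4901 and 4547 in macrophages, but the monocytes held 418, 977, 1246 and 2889, least in mouse 6 and most in mouse 9. Its difference of 1.47 ± 0.34 passed (adjusted p = 0.0307) and did not pass without mouse 7 (0.125) or mouse 8 (0.104).

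Several genes used as macrophage markers were higher in the monocytes. Gpnmb, a glycoprotein of lipid-laden macrophages, stood at 119, 118, 56.1 and 78 in macrophages and 579, 1122, 1126 and 1109.9 in monocytes (log2 difference -2.33 ± 0.21 SE). Spp1, which encodes osteopontin, was at 50765 to 62954 in macrophages and 102404 to 145412 in monocytes, and Cd163, the haemoglobin scavenger receptor, was low in both at 6.44 to 15.1 against 36.6 to 172. The groups of each of these genes did not overlap. Cd68, a lysosomal membrane protein used to stain macrophages, was not called (22442, 25695, 23304 and 23702 against 19544, 18851, 22440.0 and 24147, log2 difference 0.12 ± 0.06 SE), nor was Siglec1, the sialoadhesin (1609 to 2081 against 1198 to 2095).

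The 15 largest differences in favour of macrophages were led by a chemokine, an adhesion molecule and a lectin. Cxcl13 (GRCm38, chromosome 5, 95956951 to 95961068), the chemokine that draws B cells, stood at 1179, 2154, 2262 and 1798 normalized reads in macrophages and 3.76, 1.21, 10.6 and 9.75 in monocytes (log2 difference 5.83 ± 0.16 SE, adjusted p = 8.34e-10). Cadm1 (chromosome 9, 47530173 to 47857637), an immunoglobulin-type adhesion molecule, stood at 5242, 5708, 5989 and 4772 and 48.8, 57.8, 90.7 and 36.6 (4.46 ± 0.07, adjusted p = 2.59e-11). Col14a1 (chromosome 15, 55307750 to 55520803), a fibril-associated collagen, stood at 9852, 8645, 8379 and 9826 and 213, 258, 153 and 197 (3.81 ± 0.07, adjusted p = 5.41e-11). In all 3, the lowest macrophage library was more than an order of magnitude above the highest monocyte library. Cd207, the lectin langerin, had 606 to 1198 against 0 to 9.75 normalized reads, and Slco2b1, an organic anion transporter, 689 to 1199 against 4.82 to 36.6. Hpgds, which makes prostaglandin D, had 3604 to 4469 against 74.7 to 164, and Tlr12, a receptor of parasite profilin, 775 to 1626 against 12.1 to 50.2. Fcrls, an Fc receptor-like scavenger receptor, had 4273 to 8328 against 151 to 368. The rest of the 15 were Asb2, Mb21d2, Chst7, Tanc2, Cspg4, Rapgef5 and Scamp5, with log2 differences from 3.13 to 3.49.

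**Figure D2:**
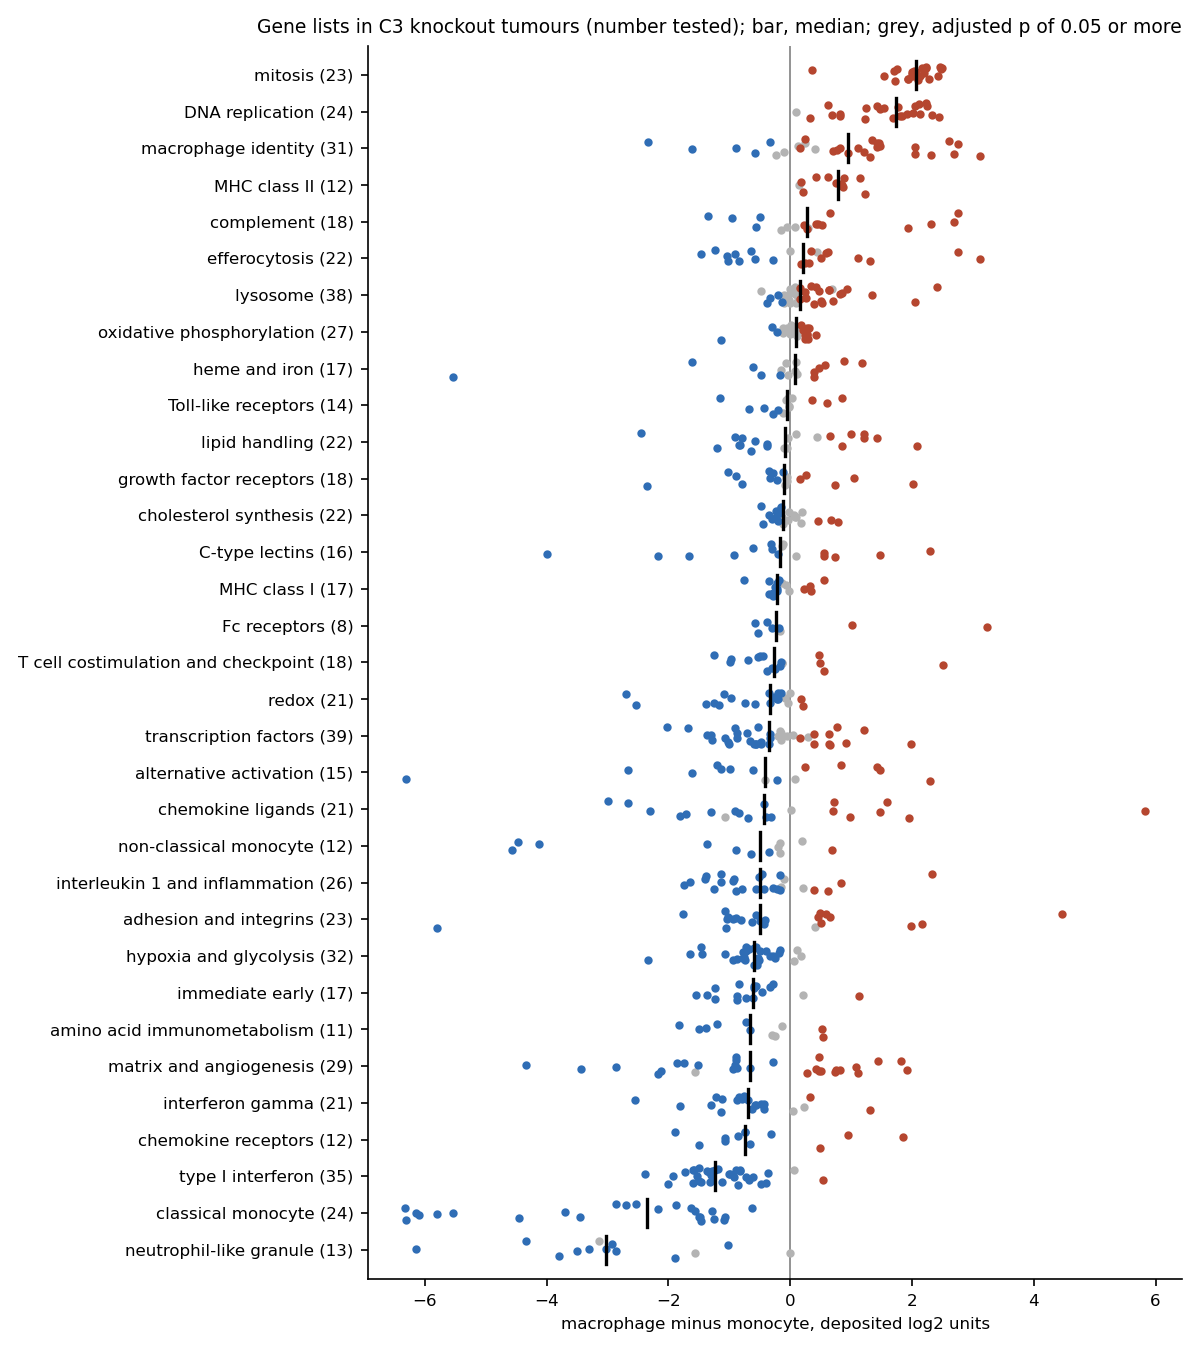
Macrophage minus monocyte differences in C3 knockout tumours, in deposited log2 units, of every tested member of 33 gene lists, with red for members called higher, blue for members called lower, grey for members not called and a black bar at the median. The mitosis list has a median of 2.07 at the top and the neutrophil-like granule list -3.03 at the bottom.

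Transcription factors of the myeloid lineage leaned to the monocytes. Of 39 tested, 22 were lower in macrophages and 10 higher, with a median of -0.35. Cebpb, which drives inflammatory and emergency myeloid genes, stood at 11764, 4621, 13714 and 2450.0 in macrophages and 33924, 59915, 69968 and 40322 in monocytes. Its difference of -2.03 ± 0.35 (adjusted p = 0.0139) did not pass without mouse 7 (0.0651), mouse 8 (0.0517) or mouse 9 (0.0571). Cebpe, a factor of granule maturation, was low in both (7.37 to 15.6 against 60.1 to 99.4) and lower in macrophages. On the macrophage side, Bhlhe41, a transcriptional repressor found in tissue macrophages, stood at 137, 142, 173 and 158 against 19.7, 22.9, 16.4 and 11.4, and Pparg, a lipid-sensing nuclear receptor, at 572, 631, 629 and 599 against 132, 186, 188 and 253. Hdac9, a histone deacetylase, was higher by 0.92 ± 0.12 log2 units. Irf8, which sets the monocyte and dendritic lineages, was not called (12608 to 15384 against 11267 to 15302), nor was Klf4 (1488 to 3780.2 against 2316 to 3978).

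Receptors for growth factors and cytokines moved both ways, 5 of 18 higher in macrophages and 9 lower (30.9% and 29.9% of all genes). Both chains of the TGF-beta receptor were higher: Tgfbr2 stood at 9899, 10335, 11439 and 10642 against 3707, 3884, 3769 and 3826, and Tgfbr1 at 10353 to 12038 against 4438 to 6993. Kit, the receptor of stem cell factor, was low but separated, at 173, 209, 179 and 327 in macrophages and 29.1, 12.1, 47.3 and 33.3 in monocytes (log2 difference 2.02 ± 0.20 SE). Flt3, the receptor of dendritic cell growth, had 1.06 to 32.2 against 162 to 263 normalized reads and Csf3r, the receptor of granulocyte colony-stimulating factor, 1495 to 1906 against 3940.2 to 5674, both lower in macrophages.

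Chemokine ligands moved both ways. Of 21 ligand genes, 7 were higher in macrophages and 12 lower, against 30.9% and 29.9% of all genes. Besides Cxcl13, macrophages held more Ccl12, a ligand of Ccr2, at 4976, 5874, 6690.1 and 8655 against 857, 739, 854 and 1517, and more Ccl8 (58.9 to 136 against 9.65 to 30.9). Monocytes held more Ccl6 (16895 to 50324 against 2083 to 4175 in macrophages), more of the neutrophil attractant Cxcl3 (1289 to 7933 against 80.7 to 342) and more of the eosinophil attractant Ccl24 (134 to 355 against 5.32 to 14.8). Ccl7, another Ccr2 ligand, was not called, at 1441, 2577, 3742 and 2937 and 1697, 1885, 2745 and 4492. The receptors were lower in macrophages for 9 of 12 genes, with a median of -0.74, and 3 were higher. Among the higher were Cxcr3, the receptor of interferon-induced chemokines (353 to 448 against 48.2 to 86.4), and Cx3cr1, the fractalkine receptor (31466 to 34163 against 10852 to 15739). The scavenging receptor Ackr3 was lower (27.5 to 81.1 against 116 to 448). Cxcr2, which neutrophils use to find Cxcl3, had 16.9 to 63.9 normalized reads in monocytes and at most 0.920 in macrophages.

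Adhesion molecules and integrins followed the same split, with 8 of 23 higher and 14 lower and a median of -0.50. By at least 1 log2 unit, 3 were higher and 6 lower. Itgb2, given below with the complement genes, is among the lower members. Apart from Cadm1, the laminin receptor chain Itga6 stood at 9752, 8867, 8275 and 8648 in macrophages against 1365, 1485, 1181 and 1060.3 in monocytes, and Itga9 at 2626, 2463, 2715 and 2125 against 189.7, 324, 326 and 362. Vcam1, a ligand of integrin alpha 4, was not called (253 to 474 against 143 to 293, log2 difference 0.40 ± 0.19 SE).

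Complement genes higher in macrophages were led by the C1q chains. Of 18 tested, C3 included, 10 were higher in macrophages and 4 lower, with a median of 0.28. Cd59a, which blocks the membrane attack complex, was higher (66.7 to 98.4 against 3.76 to 16.4). Cfb, the protease of the alternative pathway that binds C3, was lower, at 124, 172, 185 and 128 against 478, 339.8, 476 and 305, and so was Itgb2, the shared chain of complement receptors 3 and 4 (19090.5 to 24369 against 29829 to 42299). C5ar1, the receptor of the C5a fragment, was not called (14277, 17744, 16357 and 17313 against 15708, 17730.0, 18839 and 17226).

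Genes by which phagocytes take up dying cells, receptors with their bridging molecules and signalling partners, were divided, 11 of 22 higher and 9 lower. Mertk, the receptor that Gas6 bridges to, stood at 1468, 1752, 2052 and 1199 in macrophages and 312, 539.9, 363 and 566 in monocytes (log2 difference 1.31 ± 0.16 SE, adjusted p = 0.00045). Tgm2, a transglutaminase that serves uptake, was lower in macrophages, at 10682, 13500.1, 16044 and 11982 against 46371, 53895, 64238 and 49825, as were the inhibitory receptors Cd300a (1117 to 1632 against 4329 to 4428) and Cd300lf (1513 to 2737 against 4969 to 6985). Among Fc receptors, Fcrls and Fcgrt, the neonatal receptor that recycles IgG (1618 to 2332 against 624 to 874), were higher. The activating receptor Fcgr1 (5967 to 8206 against 10563 to 13358) and the kinase Syk (4483 to 4775 against 6523 to 9289) were lower, and 5 of 8 genes in all were lower. The lectins Clec4e, which senses mycobacterial and dead-cell ligands, and Clec4d were lower in macrophages (1431 to 2476 against 14379 to 18489 and 747 to 1294 against 4236 to 5599), while Mgl2 (386 to 897 against 32.5 to 148) and Clec12a (5382 to 7225 against 2334 to 3371) were among 5 of 16 lectins higher, a count of 3 without mouse 6, 7 or 8. Toll-like receptors and their partners were divided (3 higher and 5 lower of 14, median -0.05). Tlr3, the sensor of double-stranded RNA, was higher (983 to 1345 against 421 to 619), and Tlr5, the flagellin sensor, lower (155 to 194 against 487 to 598).

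Transcripts of MHC class II presentation were mostly higher in macrophages, and most of those of class I were not. Of 12 class II genes tested, 11 were higher and none lower, with a median of 0.79. Centring each library on its median gave 9 higher. Cd74, the invariant chain, stood at 638724, 682376, 779068 and 724789 normalized reads in macrophages and 275030.1, 232268, 400392 and 366044 in monocytes. H2-Eb1, a class II beta chain, stood at 156958, 166174, 207274 and 178846 and 52313, 47067, 81886 and 72126, and H2-Aa at 138269.7, 141958, 167437 and 155662 and 60215, 51719.8, 85775 and 77584. The groups did not overlap in any of the 3 genes, with differences of 0.88 ± 0.07, 1.14 ± 0.07 and 0.87 ± 0.06 log2 units (SE). Of 17 class I genes, 4 were higher and 10 lower, all by less than 1 log2 unit. Nlrc5, the activator of class I genes, was lower (log2 difference -0.75 ± 0.09 SE), H2-K1 and B2m were not called (-0.07 and -0.01), and the chaperone Pdia3 was higher by 0.55 ± 0.06.

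Genes of the type I interferon response were lower in macrophages almost throughout. Of 35 tested, 33 were lower, 21 of them by at least 1 log2 unit, with a median of -1.24 and a range from -2.38 to 0.54. Rsad2, the antiviral enzyme viperin, stood at 3014, 3709, 4068 and 2438 in macrophages and 26219, 22076, 22067 and 21384 in monocytes (log2 difference -2.01 ± 0.08 SE, adjusted p = 1.32e-07). Ifi205, a DNA-binding protein of a family with near-identical copies, stood at 473, 645, 703 and 453 against 6051, 4553, 6490.1 and 6283. Isg20, an exonuclease, and Mx1, a dynamin-like antiviral protein, were 6.70-fold and 5.35-fold lower. Ifi44 was the 1 member called higher (566 to 794 against 328 to 426), and Bst2, tetherin, was not called (3915 to 4640.0 against 3359 to 4389.9). The groups of the 33 genes and of Ifi44 did not overlap. Of 21 genes that respond to interferon gamma, 17 were lower and 2 higher, with a median of -0.70. Cxcl10, a chemokine for Cxcr3-bearing T cells, stood at 3713, 4318, 5132 and 3552 against 17505, 12754, 15828 and 13227, and Cxcl11 at 837, 920.0, 1207 and 792 against 6649.6, 3734, 5401 and 4084. Iigp1, an immunity-related GTPase, was the larger exception (1966 to 4924 against 506 to 1093).

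The 250 bases before the start sites of genes in both interferon lists were searched for the interferon-stimulated response element. It was read as a pair of GAAA runs with any 2 bases between them on either strand. It is the site that interferon-activated factors are known to bind. The sequences are from RefSeq on GRCm38.p6, and those of 25 of the 35 type I genes were in the table. The letters stood in 12 of these 25 promoters (48%), in 10 of 15 of the interferon gamma list and in 3.04% of 27025 promoters of the same length. A match describes the letters and shows no binding. Both lists were made of known interferon-responsive genes, and the search did not use their cell-type differences. The shares therefore describe the lists and give no support to the result above. The promoters of Rsad2 (chr12:26456453-26456702), Ifi205 (chr1:174031756-174032005) and Cxcl10 (chr5:92348890-92349139) are shown as examples that hold the letters. All lie on the minus strand and are written 5′ to 3′ on the strand of the gene, ending at the last base before the start site, with the matched letters in capitals.
Rsad2: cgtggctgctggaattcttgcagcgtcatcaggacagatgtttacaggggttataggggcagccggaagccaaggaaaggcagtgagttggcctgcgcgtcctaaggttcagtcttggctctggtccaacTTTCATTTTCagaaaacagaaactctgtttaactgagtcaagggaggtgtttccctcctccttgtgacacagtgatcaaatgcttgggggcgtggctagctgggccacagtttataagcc
Ifi205: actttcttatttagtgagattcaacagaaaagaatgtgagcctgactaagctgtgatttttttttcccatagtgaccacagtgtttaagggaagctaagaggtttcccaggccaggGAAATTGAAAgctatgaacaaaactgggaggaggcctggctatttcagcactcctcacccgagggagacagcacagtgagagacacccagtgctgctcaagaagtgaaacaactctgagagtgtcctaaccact
Cxcl10: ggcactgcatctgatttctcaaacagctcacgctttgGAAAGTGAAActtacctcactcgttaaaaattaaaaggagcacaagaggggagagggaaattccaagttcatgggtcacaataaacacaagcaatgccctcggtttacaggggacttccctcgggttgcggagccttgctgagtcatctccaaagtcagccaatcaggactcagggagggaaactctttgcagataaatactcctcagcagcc
The match begins 120 bases before the start site in Rsad2, 134 in Ifi205 and 213 in Cxcl10, and in Rsad2 it is on the opposite strand.

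Inflammatory mediators were also lower, 19 of 26 against 4 higher, with a median of -0.49. Osm, the cytokine oncostatin M, stood at 7001, 8940.3, 6801 and 4018 in macrophages and 37200.0, 49661, 39341 and 22703 in monocytes, 5.56-fold lower. Il6 (15.1 to 34.4 against 126 to 239) and Ptges, which makes prostaglandin E2 (47 to 79.5 against 212 to 375), were lower too. Il12b, a chain of interleukins 12 and 23, was higher at 83.7, 80.3, 139.8 and 65.6 against 3.76, 3.62, 0 and 10.6, as was Il10 (62.9 to 129 against 21.6 to 56.6). Tnf was not called (601 to 1225 against 524 to 785), nor was Nlrp3, the inflammasome sensor (1585 to 2245 against 1919 to 2496). Of 11 genes of amino acid metabolism 6 were lower and 2 higher. Arg1, arginase, stood at 7876, 13657, 9460.1 and 5231 against 21266, 42363, 28020.3 and 24292, and Nos2, the inducible nitric oxide synthase that uses the same substrate, at 343, 420.3, 499.8 and 206 against 904, 2663, 1899.7 and 807. Acod1, which makes itaconate, was lower (log2 difference -1.50 ± 0.14 SE). The list of alternative activation was split, 5 of 15 higher and 8 lower: Mgl2 and Folr2, a folate receptor (59.3 to 100.2 against 3.76 to 43.1), were higher, and Chil3 and Ccl24 lower. Without mouse 8, 3 of the list were higher. Immediate early genes, which respond rapidly to many signals, were lower for 15 of 17, led by Ier3 (2158 to 4608 against 10022 to 19659), while Fosb was higher (1353 to 3536 against 436 to 1194).

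Genes known to be induced by low oxygen and those of glycolysis were lower in macrophages for 29 of 32 tested and higher for none, with a median of -0.60. Egln3, an oxygen-sensing prolyl hydroxylase, stood at 115, 187, 146 and 82.4 in macrophages and 1255, 2243, 1493 and 936 in monocytes (log2 difference -2.34 ± 0.08 SE, adjusted p = 2.47e-09). Ndrg1, a stress-response gene, stood at 721, 1072, 747 and 636 and 2379, 4799, 3329 and 2922, and Ddit4, an inhibitor of mTOR, at 133, 153, 131 and 68.3 and 551, 744, 773 and 432. All 3 separated the groups. The glucose transporter Slc2a3, the kinase Pdk1 and the peptide hormone Adm were not called (0.18, 0.06 and 0.11). Genes of oxidative phosphorylation were nearly level, 10 of 27 higher and 3 lower (5 lower when libraries were centred on their medians) with a median of 0.09. Ndufa4, a respiratory chain subunit, was the largest at 493, 542, 447 and 472 against 1854, 1236, 1384 and 1601, and lower in macrophages.

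Lipid and lysosomal genes gave smaller or divided differences, and redox genes were mostly lower in macrophages. In the lipid list 7 of 22 were higher (30.9% of all genes were). Among them were Ch25h, which makes 25-hydroxycholesterol (2321 to 3493 against 318 to 459), and Pltp, the phospholipid transfer protein (5344 to 6983 against 1363 to 1771). Another 10 were lower, led by Apoc1 with 44.6 to 70.5 in monocytes and at most 1.06 in macrophages. Cholesterol synthesis genes stayed within 1 log2 unit (3 of 22 higher, 9 lower), with Dhcr7 at 0.79 ± 0.09 and Mvd at -0.47 ± 0.07. Without mouse 8 the list had 4 genes lower, without mouse 6 it had 5, and TMM scaling gave 5. Lysosomal genes were higher for 19 of 38 and lower for 4. The cathepsin Ctsf led them (200.1 to 401 against 16 to 28.9), while Lamp1 was not called (-0.01). Redox genes were lower for 16 of 21: Gsr, glutathione reductase, stood at 1288, 1607, 1224 and 1031 in macrophages and 18575, 22733, 18009 and 15907 in monocytes, 14.6-fold lower, and Mgst1, a microsomal glutathione transferase, at 269, 409, 631 and 265 and 4379, 4061, 4391 and 4409. Of 17 heme and iron genes, 6 were higher and 5 lower, and 3 were lower without mouse 7 or 8. Tfrc, the transferrin receptor (1305 to 1583 against 523 to 694), and the metal transporter Slc11a2 (1679 to 1849 against 492 to 599) were higher, and Hp and Cd163 lower.

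Genes that shape matrix and vessels were divided, 13 of 29 higher and 15 lower. Thbs1, the anti-angiogenic matrix protein thrombospondin 1, stood at 9175, 14305, 14898 and 7379 in macrophages and 118177, 305100.4, 204494 and 163008 in monocytes, 17.3-fold lower. Flt1, a receptor of vascular endothelial growth factor, was also lower (13.3 to 31.8 against 659 to 972), as was the protease Mmp19 (86.5 to 194 against 795 to 1769.6). Pdgfb, which recruits pericytes, stood at 1567, 1506, 1595 and 1818 against 282, 165, 319 and 252, and Timp2, an inhibitor of matrix proteases, at 12332, 12874, 10126 and 12696 against 1752, 2003, 1649.8 and 2788, both higher. Fibroblast and sarcoma markers, summed with those of the other cell types, were lower in macrophages too, and their part in the matrix result was not tested. Of checkpoint and costimulatory genes, 12 of 18 were lower, among them Cd80 (363 to 496 against 1181 to 1767) and the inhibitory receptor Lilrb4a (9954 to 12184 against 22127 to 36539.8). Tnfsf13b, the B cell survival factor BAFF, was higher, at 2151, 2169, 2471 and 1796 against 178, 152, 244 and 172 (log2 difference 2.51 ± 0.07 SE).

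Macrophages carried more transcripts of dividing cells. Of 24 DNA replication genes tested, 23 were higher and none lower, with a median of 1.73, and all 23 mitosis genes were higher, 22 of them by at least 1 log2 unit, with a median of 2.07. Rrm2, which makes deoxynucleotides, stood at 2573, 2352, 1561 and 2624 in macrophages and 210.4, 216, 242 and 130.0 in monocytes. Ccnb2, a mitotic cyclin, stood at 1513, 1645, 1209 and 1342 and 107, 108, 179 and 69.9 (log2 difference 2.50 ± 0.14 SE, adjusted p = 1.44e-06), and Birc5, survivin, at 1475, 1285, 887 and 1285 and 117, 118, 99.4 and 68.2. The macrophage library of mouse 8 was the lowest of the 4 for all 3 genes and still above every monocyte library. Tk1 and Uhrf1 of the replication list and Nusap1 and Nuf2 of the mitosis list were between 2.23 and 2.46 log2 units higher. The same search of promoters was made for the CCAAT box (CCAAT) and the cell cycle homology region (TTTGAA), letters known from mitotic promoters. CCAAT stood in 15 of 19 mitosis promoters in the table (78.9%), in 12 of 21 of DNA replication (57.1%) and in 34.5% of all 27025. TTTGAA stood in 6 of 19, 1 of 21 and 16.3%. These lists too were made of known genes of the process, and the search did not use their cell-type differences. The promoter of Ccnb2 (RefSeq, GRCm38.p6, chr9:70421555-70421804, minus strand), the mitosis gene with the largest difference, is shown with its 3 CCAAT boxes in capitals, which begin 87, 54 and 21 bases before the start site.
Ccnb2: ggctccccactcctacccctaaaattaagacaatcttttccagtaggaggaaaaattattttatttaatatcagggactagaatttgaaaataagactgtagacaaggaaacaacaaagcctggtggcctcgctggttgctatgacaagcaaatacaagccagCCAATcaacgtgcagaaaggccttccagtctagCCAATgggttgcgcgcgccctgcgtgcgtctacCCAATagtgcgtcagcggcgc

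Transcripts of other cell types were present in both sorted populations. Fibroblast and sarcoma markers were lower in macrophages for 8 of 9 tested, and their 17 genes summed to 251 to 1293 normalized reads in macrophages and 1169 to 7273 in monocytes, with mouse 8 lowest in both. Red blood cell markers were lower for 5 of 5, with sums of 325 to 627 and 587 to 2924. T and NK cell markers were lower for 11 of 13 and summed to 524 to 789 and 707 to 1116. Without mouse 8 the list had 5 genes lower, and without any other mouse 7, where genes that left the test are not counted. Cd4, which mouse macrophages can also carry, was the exception (16 to 41 against 0 to 3.62). Dendritic cell markers were lower for 7 of 13 and higher for 3 (1 without mouse 6), with overlapping sums (4804 to 5453 and 4893 to 6935). Flt3 and Cd209a (0.920 to 13.8 against 128 to 789.7) were among those lower in macrophages. Differences in the list ran from -3.99 for Cd209a to 2.49 log2 units for its highest member. B and plasma cell markers summed to 6436 to 7743 and 4654 to 9726. Ighm, the heavy chain of IgM, held 5771 to 7207 against 1993 to 4158 of them. Igkc stood at 1.88, 2.41, 28 and 2164 in monocytes and at 0 in macrophages. Endothelial markers summed to 921 to 1111 and 678 to 757, with Cdh5 at 2.12 to 25.7 against 36.7 to 61.7. Of the mast cell and basophil list Kit alone was tested, and Cpa3 had at most 8.94 normalized reads in any knockout library. Markers at 0 in all 4 macrophage libraries were Ly6g, Ngp, Pax5, Igkc, Lum, Cldn5, Mcpt4, Tpsb2 and Cma1, and no listed marker was at 0 in all 4 monocyte libraries. The part of these transcripts in the heme, T cell and other results was not tested.

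**Figure D3:**
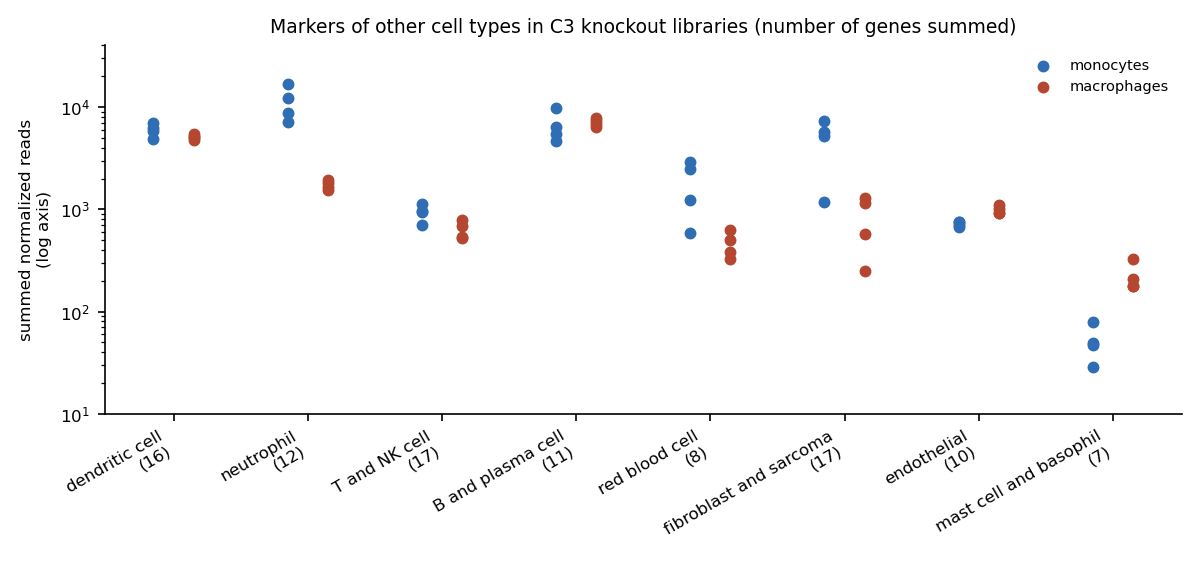
Summed normalized reads, on a log axis, of marker genes of 8 other cell types in the 4 monocyte libraries (blue) and 4 macrophage libraries (red) of C3 knockout tumours. Neutrophil markers ran from 7092 to 16685 in monocytes and 1556 to 1942 in macrophages, and fibroblast and sarcoma markers from 1169 to 7273 and 251 to 1293. Most of the neutrophil sum in macrophages was Csf3r.

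The last comparison asked whether the cell-type difference itself depended on C3 genotype. Loss of C3 cannot be told apart here from other differences between the wild-type and knockout mice. Across 12606 genes tested in both genotypes, the differences followed each other (Pearson 0.944, Spearman 0.930, across genes, which are not independent replicates). The test of the difference, knockout minus wild type over all 16 libraries with mouse as a block, called 251 of 13134 genes (1.91%; limma, Benjamini-Hochberg), 165 higher (1.26%) and 86 lower (0.655%), and 1853 had an unadjusted p under 0.05. TMM scaling gave 110 higher and 108 lower. The count was 81 without the block and 71 without limma's trend and robust estimation, and 144, 142, 119 and 154 without mouse 1, 2, 4 or 9. Of the 247 called genes that were also tested within the knockout, 85 had a cell-type difference of the same sign and larger than in wild type, 106 of the same sign and smaller, and 50 of opposite sign.

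Cxcl13 stood furthest from equality. Wild-type macrophages held 7.60, 11.2, 2.77 and 1.69 normalized reads and wild-type monocytes 0 to 2.47, so that the cell-type difference was 0.42 in wild type and 5.83 in the knockout (difference 5.41 ± 0.25 SE, adjusted p = 1.87e-07). Mb21d2, of the Mab-21 domain family, was 0.78 in wild type and 3.49 in the knockout (adjusted p = 0.000393). Kit went from 0.48 to 2.02 (adjusted p = 0.0295), and this call did not pass without mouse 1 (0.0721), 2 (0.0858), 3 (0.055), 7 (0.0578) or 9 (0.101). Neurl1a, a ubiquitin ligase of Notch ligands, went from 1.43 to 2.62 (adjusted p = 0.00358). In these 4 genes macrophages exceeded monocytes more in the knockout. Il1r2, the decoy receptor of interleukin 1, and Dgat2, which makes triglycerides, had cell-type differences of -2.70 and -3.05 in wild type and -0.47 and -1.66 in the knockout (adjusted p = 7.12e-05 and 0.00364). In the other direction, Cd209a, a lectin of monocyte-derived dendritic cells, had 128 to 789.7 normalized reads in knockout monocytes and 2.57 to 15 in wild-type monocytes (difference -3.13 ± 0.33 SE, adjusted p = 0.000737, 0.0517 with voom on recovered reads). Ccr3, the eosinophil chemokine receptor, was 0.91 in wild type and -1.08 in the knockout (adjusted p = 0.00355). Cbr2, a carbonyl reductase, went from 2.31 to -0.24 (adjusted p = 0.00827, 0.0603 without the block), with 29.1, 84.4, 107 and 474 normalized reads in knockout monocytes, the highest in mouse 9.

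Calls within the gene lists are given beside the 1.91% of all genes. Of 12 class II genes 6 were called, all with a smaller macrophage excess in the knockout. H2-Aa was 1.86 in wild type and 0.87 in the knockout, H2-Eb1 2.15 and 1.14, and Cd74 1.73 and 0.88 (adjusted p = 0.00405, 0.00364 and 0.00845). Cd74 did not pass without the filter on low values (0.107) or without limma's trend and robust estimation (0.0539). H2-Aa and H2-Eb1 lie on chromosome 17, as C3 does, and Cd74 on chromosome 18. Wild-type monocytes held 37182 to 60794 normalized reads of Cd74 and knockout monocytes 232268 to 400392, and macrophages 269366 to 320743 and 638724 to 779068. The knockout libraries lay above the wild-type libraries in both cell types, and levels between genotypes were not tested. Of 35 type I interferon genes 6 were called, all further below monocytes in the knockout. Of 32 genes of hypoxia and glycolysis 7 were called, all nearer to monocytes in the knockout: Egln3 went from -2.81 to -2.34 and Ndrg1 from -2.09 to -1.45 (adjusted p = 0.0208 and 0.00355). Neither passed without the block (0.591 and 0.216), and Egln3 did not pass without mouse 1, 3, 4, 8 or 9 (0.0583 to 0.0727). Egln3 also did not pass on log2 of normalized reads plus 1 (0.154), with voom (0.266) or without trend and robust estimation (0.081). Of 26 inflammatory genes 7 were called, all higher in macrophages relative to monocytes than in wild type, among them Nos2 (-2.54 to -1.38, adjusted p = 0.0189) and Il1r2. Nos2 did not pass without the block (0.294), without trend and robust estimation (0.0616) or without mouse 1, 2, 4, 8 or 9 (0.0551 to 0.0691). The DNA replication list had no call and the mitosis list 1. The C1q genes (C1qa 2.65 and 2.76) and Ly6c2 (-6.33 and -6.32) were not called different between genotypes.

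**Figure D4:**
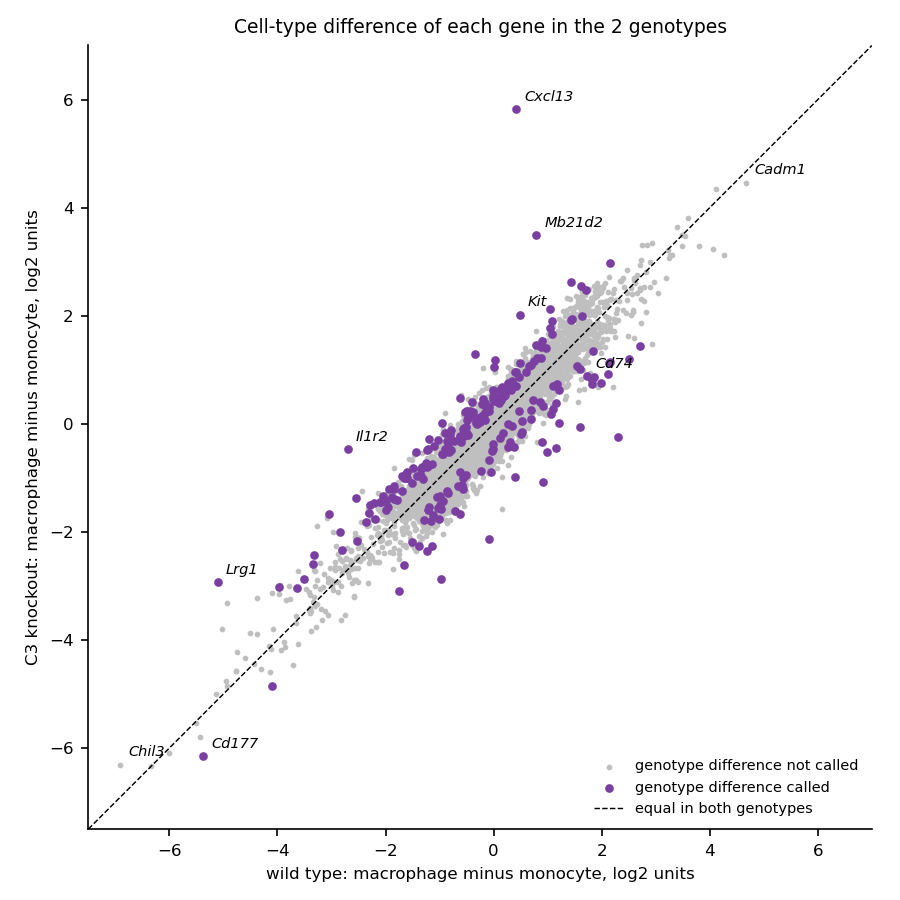
Macrophage minus monocyte difference, in log2 units, of each gene tested in both genotypes, wild type on the horizontal axis and C3 knockout on the vertical axis, with purple for genes whose difference between genotypes was called, grey for the rest and a dashed line of equality. Cxcl13 lies at 0.42 and 5.83, far above the line, and most genes lie close to it.

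**Figure D5:**
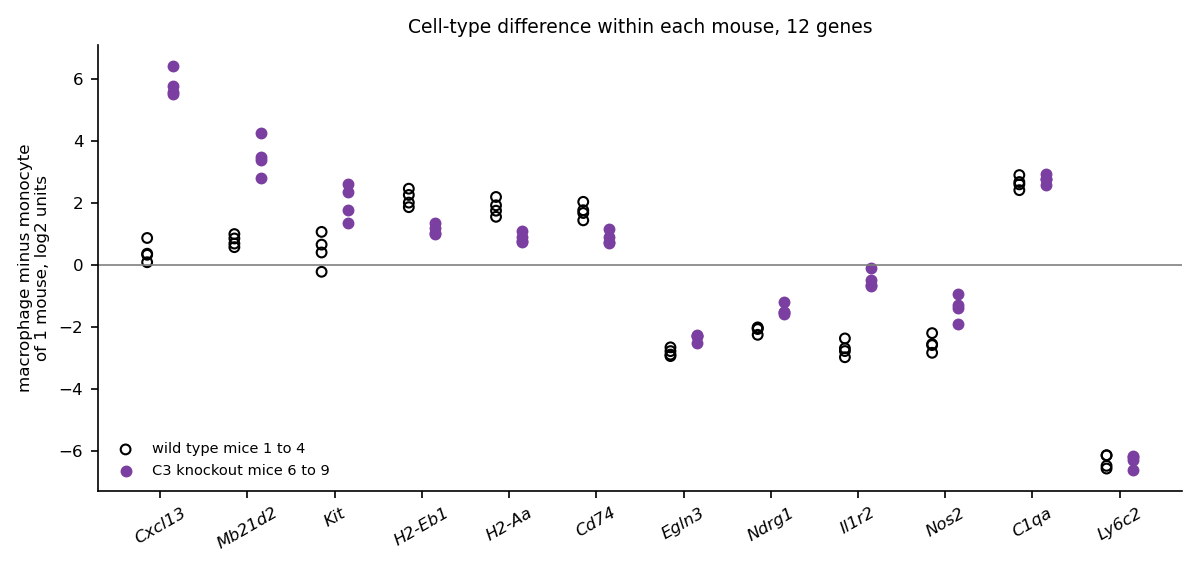
Macrophage minus monocyte difference within each mouse, in log2 units, of 12 genes, with open circles for wild-type mice 1 to 4 and purple points for C3 knockout mice 6 to 9. The genotypes do not overlap for Cxcl13, Mb21d2, Kit, H2-Eb1, H2-Aa, Cd74, Egln3, Ndrg1, Il1r2 and Nos2. These were chosen from called genes, part of them by a rule that asked for no overlap, so their separation is not a further result. The genotypes overlap for C1qa and Ly6c2, which were not called.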

How the data were processed

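RNA of sorted cells was measured in 16 libraries, 4 for each cell type and C3 genotype. Per the submitters' processing notes, the authors' tools and build were bcl2fastq 2.19.0.316, STAR 2.7.2b, DESeq2 and GRCm38. The sources used here do not give the annotation, the counting or the transform. The authors' deposited matrix holds log2 values that behave as the regularised log: inverting that transform with the size factors and base means recovered reads within 0.05 of a whole number for 81.2% of the values of 20443 genes. The base means are normalised signal from the authors' deposited tables. Log2 values of this kind are drawn toward the mean of the gene, most for low genes, so differences are smaller than in reads. Symbols were taken from GENCODE M21.

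Genes with a linear value of at least 10 in at least 4 libraries were fitted with limma 3.58.1 (R 4.3.3; trend and robust) on the deposited log2 values with mouse as a block, and p-values were adjusted by Benjamini-Hochberg over all genes tested, with a threshold of 0.05. Titles give both libraries of a mouse the same number. Deviations of same-numbered libraries correlated at 0.0508, 0.0867, 0.224 and 0.101 for mice 6 to 9, and those of different mice at -0.229 to 0.148. No libraries agreed within sampling noise. An exact test over 4 pairs cannot go below 0.125, so single genes rest on the fit. The scripts were tested on simulated data. The comparison and the gene lists were chosen with earlier results of these data known. Genes are named if they are C3, cell type markers, among the 15 largest differences or 8 largest genotype differences each way with a mean linear value of at least 50, or among the 4 largest called members, up to 3 members called against the median, or the uncalled members of a list. The named class II, hypoxia and inflammation genes of the genotype comparison are such members. The 15 were drawn from called genes whose groups did not overlap and whose sign was the same in every mouse. The 8 were drawn from called genes whose per-mouse differences did not overlap between genotypes. Predicted genes, clone names, pseudogenes and mitochondrial genes were left out of both. Alternatives covered the block, filter, scaling, scale, model, spread and mice. DESeq2 and edgeR tests were not used. A few listed genes are not reported here.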

Additional observations from a re-analysis of the deposited data

Results flagged for a closer look

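In 21 of 352 groups of 4 libraries of a named gene, 1 library lay so far from the other 3 that its gap, as a share of the whole log2 range, passed the 95% critical value of Dixon for 4 values. Chance flags about 1 in 20 groups. The share of the range is given with each. In mouse 6, the monocyte library stood above the others for Rsad2 (26219 normalized reads against 21384 to 22076 in the other 3, share 0.845). In mouse 7, the macrophage library stood above the others for Spp1 (62954 normalized reads against 50765 to 52646 in the other 3, share 0.832). In mouse 7, the monocyte library stood above the others for Adgre4 (3834 normalized reads against 2789 to 2861 in the other 3, share 0.920) and Il6 (239 normalized reads against 126 to 141 in the other 3, share 0.834). In mouse 8, the macrophage library stood above the others for Tlr12 (1626 normalized reads against 775 to 846 in the other 3, share 0.883) and Iigp1 (4924 normalized reads against 1966 to 2145 in the other 3, share 0.908). In mouse 9, the monocyte library stood above the others for Ccr2 (48063 normalized reads against 39486 to 39588 in the other 3, share 0.987). In mouse 6, the monocyte library stood below the others for Cd207 (0 normalized reads against 8.68 to 9.75 in the other 3, share 0.860) and Gpnmb (579 normalized reads against 1109.9 to 1126 in the other 3, share 0.979). In mouse 7, the monocyte library stood below the others for Mgst1 (4061 normalized reads against 4379 to 4409 in the other 3, share 0.918). In mouse 8, the macrophage library stood below the others for Itgax (4115 normalized reads against 5230.0 to 5290.2 in the other 3, share 0.954) and Slc2a3 (217 normalized reads against 268 to 279 in the other 3, share 0.841). In mouse 9, the macrophage library stood below the others for F10 (16 normalized reads against 43.4 to 49.7 in the other 3, share 0.839), Syk (4483 normalized reads against 4752 to 4775 in the other 3, share 0.924), Ptges (47 normalized reads against 73.6 to 79.5 in the other 3, share 0.844) and Nlrp3 (1585 normalized reads against 2189.8 to 2245 in the other 3, share 0.928). The rest were markers of other cell types with a few reads in 1 library. In mouse 6, the macrophage library stood above the others for Cpa3 (0.920 normalized reads against 0 in the other 3, share 0.921). In mouse 8, the monocyte library stood above the others for Cldn5 (8.68 normalized reads against 0 in the other 3, share 0.970). In mouse 9, the monocyte library stood above the others for Cpa3 (8.94 normalized reads against 0 to 0.939 in the other 3, share 0.846), Tpsb2 (10.6 normalized reads against 0 in the other 3, share 0.990) and Cma1 (2.44 normalized reads against 0 in the other 3, share 0.957).

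The macrophage minus monocyte difference depended on C3 genotype for 32 named genes by limma's test of the difference, at an adjusted p under 0.05 (Benjamini-Hochberg). Values are knockout minus wild type in log2 units. Positive differences were those of Cxcl13 (5.41), Mb21d2 (2.705), Il1r2 (2.23), Kit (1.54), Dgat2 (1.38), Neurl1a (1.18), Nr4a1 (0.52), Ackr3 (0.78), Itga6 (0.34), Clec4e (0.35), Egln3 (0.47), Ddit4 (0.66), Ndrg1 (0.64), Nos2 (1.16), Thbs1 (0.63), Cd80 (0.44), Ier3 (0.40) and Nlrp3 (0.48). Negative differences were those of Cd177 (-0.77), Arhgef37 (-0.74), Cd209a (-3.13), Cbr2 (-2.55), Ccr3 (-1.98), Hdac9 (-1.20), H2-Eb1 (-1.01), Cd74 (-0.85), H2-Aa (-0.99), Fcgrt (-0.57), Clec12a (-0.43), Folr2 (-1.28), Mmp19 (-0.67) and Ccl7 (-1.19). Of these 32 genes, 24 lost the call under at least 1 alternative, and none changed sign. Nr4a1, Itga6, Fcgrt, Clec4e, Clec12a, Ddit4, Folr2, Thbs1, Mmp19, Cd80, Ier3, Ccl7, Nlrp3, Ackr3, Arhgef37, Egln3, Ndrg1, Nos2 and Cbr2 did not pass without the pairing by mouse. Cd177, with at most 4.60 normalized reads in knockout macrophages, did not pass on log2 of normalized reads plus 1 (0.709) or with voom (0.847), nor without trend and robust estimation or without mouse 1, 2, 4 or 8 (0.0598 to 0.086). Cbr2, Nlrp3 and Ccl7 were not called between cell types in the knockout.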

How the results depend on the processing

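Counts of genes called between the cell types stayed within 1.5 times of 7773 under every alternative run, with 6567 to 7177 called genes when 1 mouse was left out and 8441 with all 16 libraries in 1 fit. Calls of at least 1 log2 unit rose from 1703 to 3008 on log2 of normalized reads plus 1 and to 3002 with voom on recovered reads, scales that are not compressed. Without the replicate block, which the numbering of the mice supplies, 7732 genes were called, against 7773 with it. The genotype difference was less stable. It had 81 calls (47 higher, 34 lower) without the pairing by mouse in the block, 71 (40 higher, 31 lower) without trend and robust estimation, and 119 to 262 (80 to 157 higher, 39 to 105 lower) when 1 mouse was left out. The causes of these changes were not tested. On log2 of normalized reads plus 1, Kit (adjusted p = 0.137), Neurl1a (0.146) and Egln3 (0.154) no longer passed for the genotype difference. Cd177 (0.709), Ackr3 (0.1), Folr2 (0.0961), Clec4e (0.0947) and Arhgef37 (0.0657) did not pass on that scale either.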

Other observations

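Per kilobase of transcript, with genes chosen after their values were seen, the macrophages of C3 knockout tumours held most Cd74, the class II invariant chain, followed by Lyz2, which encodes lysozyme, Apoe, H2-Ab1, a class II beta chain, and Tmsb4x, an actin-binding peptide. The monocytes held most Lyz2, followed by Cd74, Tmsb4x, B2m, the light chain of class I, and Actb. Cd74, Lyz2 and Tmsb4x thus stood among the 5 highest genes of both cell types. Lyz2 has a near-identical copy, Lyz1, so its level is uncertain.

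The same lists had medians in the C3 wild-type mice, which share no library with the knockout mice. The mitosis median was 1.54 in wild type and 2.07 in the knockout, and that of DNA replication 1.30 and 1.73. The type I interferon median was -0.88 and -1.24, and that of MHC class II 1.14 and 0.79. Classical monocyte genes had -2.66 and -2.35. All 5 lists lay on the same side of 0 in both genotypes, and no test was made on these medians.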
